A study of Mus musculus with 9 samples.

Results

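The 7 microRNAs described here are mmu-miR-6240, mmu-miR-5126, mmu-miR-6538, mmu-miR-203b-3p, both arms of miR-712 (mmu-miR-712-5p and mmu-miR-712-3p) and mmu-miR-1291, of 1064 known mouse microRNAs in the count table. They were picked by name because they were far more abundant in chow-fed mice than on a high fat diet (HFD), so that difference chose them and is given below as a description without a test. The samples are small extracellular vesicles of mouse serum, the membrane particles that carry RNA through the blood, in 9 libraries. The group HFD Sirt3 AKI holds 3 libraries of mice on the high fat diet that overexpress Sirt3 in adipose tissue alone, HFD WT holds 3 of mice on that diet labelled wild type, and chow WT holds 3 of wild-type mice on chow. The title gives the mice as male. Sirt3 is a mitochondrial deacetylase. The sources used here do not give the promoter behind the overexpression, the ages of the mice or the length of feeding. The names of the HFD WT libraries carry a Sirt3 knock-in code that the chow WT names lack, so diet and mouse line cannot be told apart between these groups. Separate animals are not stated, so each p-value covers the spread between these libraries alone, which may be technical.

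A canonical microRNA is cut from a hairpin by Drosha and Dicer and, once loaded into an Argonaute protein, pairs with messenger RNAs mainly through its seed, bases 2 to 8 from the 5′ end. Short fragments of other abundant RNAs, such as ribosomal or small nucleolar RNA, can also be counted under a microRNA name when their sequence is the same. In mice miR-712 has been described as a product of a spacer of the ribosomal RNA precursor, raised in endothelium by disturbed flow. In humans miR-1291 has been traced to the small nucleolar RNA SNORA34, a guide for pseudouridylation. The related miR-203 is the best known microRNA of skin epithelium, where it restrains the progenitor factor p63. The functions of miR-6240, miR-5126 and miR-6538 are little described.

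Mature sequences were taken from RefSeq (GRCm38.p6) for 5 of the 7, with the seed in capitals. They are shown because the set splits into very GC-rich and ordinary sequences. The arms of miR-712 had no entry in that table.
mmu-miR-6240: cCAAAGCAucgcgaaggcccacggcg
mmu-miR-5126: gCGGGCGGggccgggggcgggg
mmu-miR-6538: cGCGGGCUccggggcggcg
mmu-miR-203b-3p: uUGAACUGucaagaaccacugg
mmu-miR-1291: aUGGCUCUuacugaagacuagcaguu
None of the 5 shared a seed with another, and miR-6240 alone shared one with a further known microRNA in the files, miR-330-3p. In miR-5126 100% of bases were G or C, the highest of 347 tested microRNAs with a sequence. The share was 94.7% in miR-6538, which ranked 2 from the top, and 69.2% in miR-6240, which ranked 10. By contrast miR-203b-3p had 45.5% and miR-1291 had 42.3%, both below the median of 47.8% over the 347. Lengths were unusual as well. Both miR-6240 and miR-1291 have 26 bases, and 4 of the 347 are that long or longer. At 19 bases miR-6538 is among the 6 of the 347 with 19 or fewer.

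The annotated positions of these 5 differ in kind. The mature miR-6240 lies at chr5:114851973-114851998 (plus strand), in a hairpin gene of its own. That of miR-5126 lies at chr1:84695890-84695911 (plus strand), opposite an untranslated part of an exon of Dner, a Notch ligand of neurons, 310 bases from the start of that gene. The mature miR-6538, at chr12:26414970-26414988 (minus strand), falls in an intron of the ubiquitin ligase gene Rnf144a on the same strand, 266 bases from its start. For miR-203b-3p the position is chr12:112130887-112130908 (minus strand), inside the miR-203 hairpin but on the opposite strand. The mature miR-1291 lies at chr15:98519828-98519853 (minus strand), in an intron of Kansl2, a subunit gene of a histone acetyltransferase complex. A search of 141767 GENCODE M21 transcripts with up to 2 mismatches found Snora34 as the only transcript besides a microRNA gene that held one of the 5 exactly, and this was miR-1291. With 2 mismatches, 8 genes held miR-5126 and 10 held miR-6538. Ribosomal precursor sequence was not used here, so an origin from it was not tested.

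The hairpins of miR-1291 and of miR-203b are printed because they overlap other small RNA genes. In the first line capitals mark the 92 bases of the 117-base Mir1291 hairpin that are also part of Snora34 (138 bases, chr15:98519716-98519853), and the mature microRNA begins at the first base of that small nucleolar RNA. In the next, capitals mark the 22 bases of the Mir203 hairpin that lie opposite miR-203b-3p, and in the last the mature miR-203b-3p within its own hairpin.
Mir1291: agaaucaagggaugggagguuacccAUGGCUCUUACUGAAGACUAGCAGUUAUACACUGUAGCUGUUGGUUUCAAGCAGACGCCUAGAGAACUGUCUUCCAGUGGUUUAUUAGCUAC
Mir203: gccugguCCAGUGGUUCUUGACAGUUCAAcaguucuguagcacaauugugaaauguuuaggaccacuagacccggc
miR-203b: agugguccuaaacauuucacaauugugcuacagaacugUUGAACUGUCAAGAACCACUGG
The whole 60-base miR-203b hairpin is the reverse complement of a stretch of the Mir203 hairpin, and 20 bases of miR-203b-3p lie opposite the mature miR-203-5p.

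**Figure D1:**
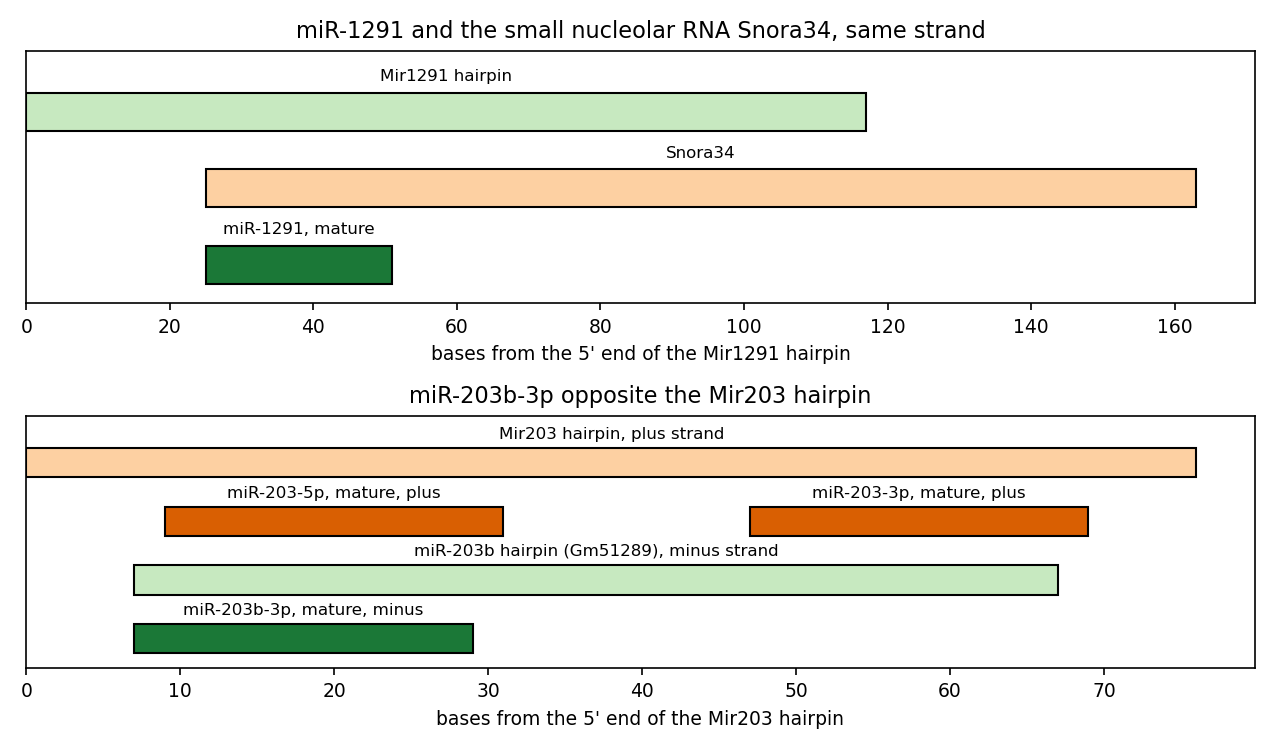
Maps of both overlapping loci, drawn to scale in bases from the 5′ end of the Mir1291 hairpin (top) and of the Mir203 hairpin (bottom). The mature miR-1291 starts where Snora34 starts, and miR-203b-3p lies opposite miR-203-5p.

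Depth differed between the groups and bears on each count below. HFD Sirt3 AKI libraries held between 1729416 and 2973432 microRNA counts, HFD WT libraries between 1953935 and 2162009, and chow WT libraries between 225002 and 306974. On average an HFD Sirt3 AKI library was 8.26 times and an HFD WT library 7.45 times as deep as a chow WT library. Levels are given as counts per 1000000 of a library total that was adjusted with edgeR's trimmed-mean (TMM) factor (normalised CPM). On that scale 1 count stands for 0.36 to 0.53 in HFD Sirt3 AKI, 0.56 to 0.66 in HFD WT and 2.55 to 3.34 in chow WT. A batch label sets HFD Sirt3 AKI replicates 2 and 3 apart from the other 7 libraries. Each of 6 erythroid markers (miR-486a-5p, miR-486b-5p, miR-451a, miR-144-3p, miR-16-5p and miR-92a-3p) was detected in every library. The first 2 had identical counts in every library, so the same reads appear to be listed under both names. Counted once, they and the other 4 took 36 to 45% of counts in HFD Sirt3 AKI, 44 to 47% in HFD WT and 32 to 33% in chow WT. That summed share was lowest in chow WT, where the 7 microRNAs were highest, but the markers differed. Levels of miR-144-3p were 116 to 143 normalised CPM in HFD Sirt3 AKI, 244 to 348 in HFD WT and 232 to 301 in chow WT. For miR-451a they were 22362 to 39530, 45146 to 72673 and 38950 to 50565 in the same order. HFD WT and chow WT thus overlapped in both, while the other 4 marker names were lower in every chow WT library than in any HFD WT library. The 3 epithelial markers (miR-203-3p, miR-200b-3p and miR-205-5p), all detected in every library, summed to 6252 to 13119 normalised CPM in HFD Sirt3 AKI, 3433 to 4874 in HFD WT and 3080 to 4108 in chow WT. Within that sum miR-200b-3p ran with the 7 microRNAs, at 248 to 385 normalised CPM in HFD Sirt3 AKI, 188 to 238 in HFD WT and 884 to 1111 in chow WT. The others did not, with miR-205-5p at 4746 to 6653, 1907 to 3645 and 1383 to 1716 in the same order. For miR-203-3p these were 1258 to 6081, 1040 to 1288 and 768.2 to 1280.5. The hepatocyte markers miR-122-5p and miR-192-5p, also detected in every library, summed to 8807 to 31047 normalised CPM in HFD Sirt3 AKI, 7095 to 7543 in HFD WT and 10655 to 13314 in chow WT. Of these miR-192-5p alone set HFD WT (2612 to 3046) apart from chow WT (6807 to 7491). For miR-122-5p the same groups overlapped, at 4145 to 4758 and 3370 to 6507. The part of any of these in the difference between diets was not tested. Serum vesicles come from many tissues, and fewer vesicles of one source cannot be told apart from less of a microRNA per vesicle.

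Together the 7 took 0.0962 ± 0.0748% of counts in HFD Sirt3 AKI, 0.0583 ± 0.0111% in HFD WT and 1.64 ± 0.111% in chow WT (SD, n = 3 each). Nearly all of these counts were miR-6240, which made up 93.8 to 97.7% of them in HFD Sirt3 AKI, 95.1 to 96.7% in HFD WT and 91.3 to 92.9% in chow WT. The other 6 together held 0.00198 to 0.00411% of counts in HFD Sirt3 AKI libraries, 0.00169 to 0.00287% in HFD WT and 0.118 to 0.139% in chow WT.

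**Figure D2:**
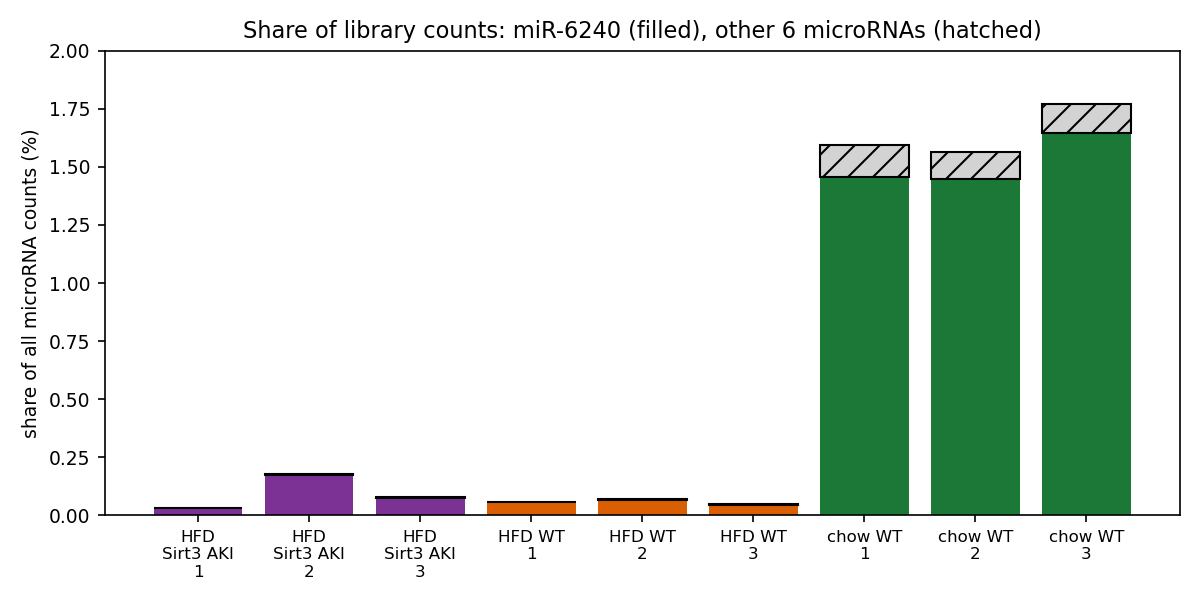
Share of all microRNA counts (percent, vertical axis) taken by the 7 microRNAs in each library, by group and replicate. Filled bars are miR-6240 and hatched parts the other 6 microRNAs. The chow WT libraries reach 1.57 to 1.77%, against 0.0318 to 0.178% in HFD Sirt3 AKI and 0.0470 to 0.0692% in HFD WT.

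The most abundant of the set was miR-6240. Its raw counts were 886, 3012 and 1597 in HFD Sirt3 AKI replicates 1 to 3, 1206, 1356 and 885 in HFD WT, and 4468, 4244 and 3699 in chow WT. Every chow WT library thus held more reads of it than any HFD library, although the chow WT libraries were the shallower ones. Normalised, the levels were 319, 1592 and 836 in HFD Sirt3 AKI, 670, 883 and 587 in HFD WT, and 11388, 11068 and 12355 normalised CPM in chow WT. Its mean was 12.7-fold lower in HFD Sirt3 AKI and 16.3-fold lower in HFD WT than in chow WT. The log2 fold change of HFD Sirt3 AKI over chow WT was -3.66, but -5.18 with batch as a term and -4.99 in the larger batch alone. By count it ranked 111, 65 and 81 in the HFD Sirt3 AKI libraries, 86, 84 and 89 in HFD WT, and 15, 17 and 14 in chow WT. The chow WT libraries lay close together, with a coefficient of variation of 5.77%, against 69.9% in HFD Sirt3 AKI and 21.4% in HFD WT.

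The all-GC miR-5126 had 43, 49 and 41 counts in HFD Sirt3 AKI, 56, 41 and 32 in HFD WT, and 205, 151 and 150 in chow WT. Levels were 20.9 ± 5.23 normalised CPM in HFD Sirt3 AKI, 26.4 ± 4.96 in HFD WT and 472 ± 68.9 in chow WT (SD, n = 3 each). This was 17.9-fold lower in HFD WT than in chow WT and 22.6-fold lower in HFD Sirt3 AKI. Relative to miR-6240 there were 3.02 ± 1.66 counts of miR-5126 per 100 in HFD Sirt3 AKI, 3.76 ± 0.82 in HFD WT and 4.07 ± 0.515 in chow WT, and the groups overlapped.

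The other GC-rich member, miR-6538, had 6, 2 and 11 counts in HFD Sirt3 AKI, 0, 2 and 1 in HFD WT, and 79, 65 and 60 in chow WT. Its level was 2.99 ± 2.46 normalised CPM in HFD Sirt3 AKI, 0.655 ± 0.651 in HFD WT and 190 ± 18.1 in chow WT (SD, n = 3 each). With 3 counts in all of HFD WT, the pooled rate there was 306-fold lower than in chow WT, with an exact 95% counting interval from 103 to 1497. In HFD Sirt3 AKI, with 19 counts, the mean level was 63.7-fold lower, a log2 fold change of -5.98 that was -6.72 without replicate 3, the library with 11 of those counts. Such intervals pool the counts of a group, so they cover counting error only and leave out the spread between libraries. PCR copies of a molecule are counted as separate reads, so even the counting error may be larger than they show. Its ratio to miR-6240 was higher in every chow WT library than in any HFD library, with 0.477 ± 0.356 counts per 100 in HFD Sirt3 AKI, 0.0868 ± 0.0771 in HFD WT and 1.64 ± 0.119 in chow WT.

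For miR-203b-3p, which lies opposite the miR-203 hairpin shown above, the counts were 9, 14 and 8 in HFD Sirt3 AKI, 6, 4 and 0 in HFD WT, and 126, 116 and 56 in chow WT. Levels were 4.94 ± 2.18 normalised CPM in HFD Sirt3 AKI, 1.98 ± 1.75 in HFD WT and 270 ± 72.7 in chow WT (SD, n = 3 each). They were 136-fold lower in HFD WT than in chow WT and 54.7-fold lower in HFD Sirt3 AKI. Its partner on the other strand, miR-203-3p, did not share this pattern. It had 3494, 11501 and 4060 counts in HFD Sirt3 AKI, 1871, 1822 and 1941 in HFD WT, and 360, 491 and 230 in chow WT. Within a library, which needs no scaling, there were 0.26, 0.12 and 0.20 counts of miR-203b-3p per 100 of miR-203-3p in HFD Sirt3 AKI, 0.32, 0.22 and 0 in HFD WT, and 35.0, 23.6 and 24.3 in chow WT. All chow WT libraries lay above all HFD libraries in this ratio. For miR-203-3p itself edgeR gave 0.24 on the log2 scale (SE 0.46, adjusted p = 0.724) in HFD WT over chow WT, and -0.49 with library totals. In HFD Sirt3 AKI over HFD WT it was 1.43 (SE 0.46, adjusted p = 0.0754), a difference that DESeq2 called. HFD Sirt3 AKI replicates 2 and 3, in the smaller batch, stood at 6081 and 2124.5 normalised CPM. Replicate 1, in the batch of HFD WT, stood at 1258, within the HFD WT range of 1040 to 1288. The arms miR-203-5p and miR-203b-5p had no entry among the deposited counts.

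Both arms of miR-712 were rare. A total of 0, 2 and 0 counts of miR-712-5p fell in HFD Sirt3 AKI, none in HFD WT, and 11, 4 and 5 in chow WT. None of the 6 HFD libraries held miR-712-3p, against 3, 8 and 10 counts in chow WT. Taking a floor of 3 counts over a group with none, the rate of miR-712-5p was 30.0-fold lower in HFD WT than in chow WT. On the same floor miR-712-3p was 42.8-fold lower in HFD Sirt3 AKI and 31.5-fold lower in HFD WT. These floor values leave out counting error in chow WT. The pooled rate of miR-712-5p in HFD Sirt3 AKI, from 2 counts, was 61.2-fold lower than in chow WT, with an exact 95% interval from 14.9 to 540. In chow WT the arms had 18.4 ± 8.92 (5p) and 20.6 ± 12.9 (3p) normalised CPM (SD, n = 3 each). The 5p arm was highest in chow WT replicate 1 and the 3p arm in chow WT replicate 3, so at these counts neither arm was the more abundant in every library.

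The rarest was miR-1291, the sequence that begins Snora34 in the hairpin above. It had 1, 4 and 2 counts in HFD Sirt3 AKI, 0 in each HFD WT library, and 4, 3 and 3 in chow WT. Raw counts of HFD Sirt3 AKI and chow WT overlapped, and the difference appears only per library total, at 1.17 ± 0.884 normalised CPM in HFD Sirt3 AKI and 9.35 ± 1.32 in chow WT (SD, n = 3 each). The pooled rate was 8.74-fold lower in HFD Sirt3 AKI, with an exact 95% interval from 3.00 to 27.1. With the floor of 3 counts for HFD WT, the rate there was 15-fold lower than in chow WT, leaving out counting error in chow WT.

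**Figure D3:**
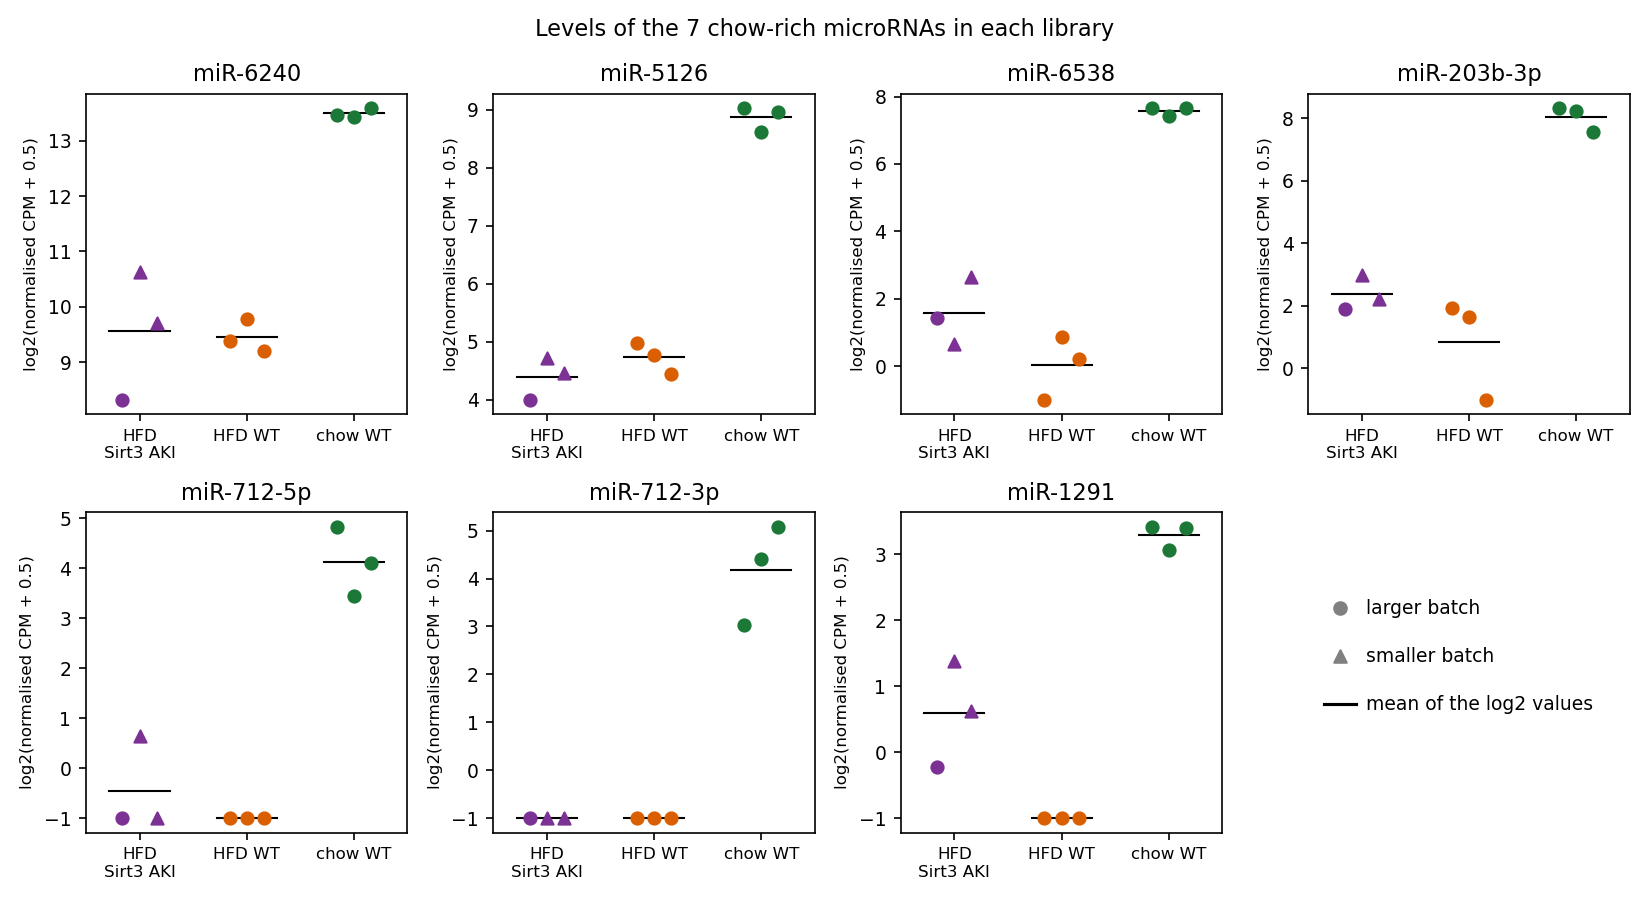
Level of each microRNA as log2(normalised CPM + 0.5) (vertical axes, scaled separately) in HFD Sirt3 AKI, HFD WT and chow WT. Each point is a library, circles the larger and triangles the smaller batch, and lines are means of the log2 values. All 3 chow WT points lie above all 6 HFD points in each of the 7 panels.

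For all 7, every HFD WT library and every HFD Sirt3 AKI library lay below every chow WT library. Of the 414 microRNAs that passed the filter on low counts, 23.9% were placed so in HFD WT against chow WT and 26.3% in HFD Sirt3 AKI against chow WT. All 7 passed that filter, but 2 of them, miR-6240 and miR-5126, would have passed on the 6 HFD libraries alone. The remaining 5 entered through chow WT, where they are high, so nothing is read from these shares. Both contrasts share the chow WT libraries, and their values are given side by side for this reason only. A rarer pattern was a higher raw count in every chow WT library than in any HFD library despite the lower depth, seen in 3.38% of the 414. These were 14 microRNAs, of which 6 belong to the set (miR-1291 does not), 5 are predicted ones without a name (2 of them with identical counts in every library) and 3 are the known miR-429-3p, miR-196a-5p and miR-10a-3p. These last were named after their values were seen. The 6 of the set were picked for their level in chow WT, so their place here restates that choice. An epithelial microRNA of the miR-200 family, miR-429-3p had 489, 590 and 362 counts in HFD Sirt3 AKI, 273, 257 and 218 in HFD WT, and 1713, 1834 and 1314 in chow WT.

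The known microRNAs whose log2 levels over the 9 libraries followed the mean of the 7 most closely were miR-429-3p (Pearson r = 0.997), miR-187-3p (0.983), miR-200b-3p (0.979), miR-378a-5p (0.978) and miR-145a-5p (0.972). These r values describe 9 libraries that fall into a chow and an HFD cluster, so they mostly restate the gap between chow WT and the rest. The sizes differed. HFD WT over chow WT gave log2 fold changes of -4.87, -1.83, -2.18, -1.96 and -2.51 for these 5, against -4.02 for miR-6240, -4.15 for miR-5126 and -6.99 for miR-203b-3p.

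GC content was also set against the chow contrast over the other microRNAs. Among the 342 other tested microRNAs with a sequence, the Spearman correlation of GC content with the log2 fold change of HFD WT over chow WT was 0.18, given as a description over microRNAs that share the same libraries. The 6 others with 70% GC or more had a median log2 fold change of 0.37. They ranged from -2.40 (miR-2137, 85.7% GC) to 0.62 (miR-700-3p, 71.4% GC). The 63 with under 40% had a median of -0.21. The sign of these medians depends on the scaling, since library totals lowered the median over all 414 to -0.57, against 0.15.

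**Figure D4:**
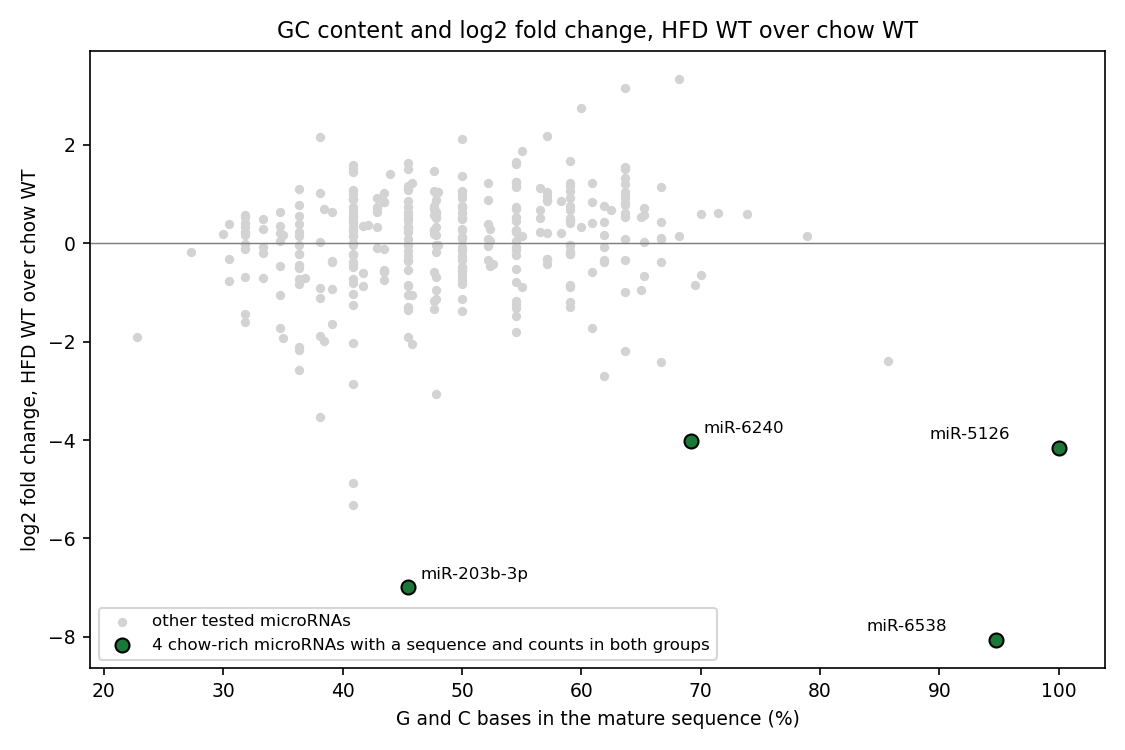
GC content of the mature sequence (percent, horizontal axis) against the log2 fold change of HFD WT over chow WT (vertical axis). Grey points are the 342 other tested microRNAs with a sequence, green points the 4 members with a sequence and counts in both groups. The members lie at -4.02 and below at both high and moderate GC content.

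Other microRNAs made by unusual routes give a background for the set. Of 13 listed for a small nucleolar RNA, mirtron, or Drosha- or Dicer-independent origin, 8 passed the filter. By edgeR 2 of these 8 were higher in HFD WT than in chow WT, miR-484 (log2 fold change 1.05, SE 0.23, adjusted p = 0.00473) and miR-320-3p (0.66, SE 0.16, adjusted p = 0.00928), both Drosha-independent. A further 1 was lower, miR-1839-5p (-0.43, SE 0.15, adjusted p = 0.0486), from a small nucleolar or Cajal body RNA. Over all 414, 21.5% (89) were called higher and 16.2% (67) lower, and with library totals 20 higher and 143 lower. Scaling by library totals left 0 of the 8 higher and 1 lower, and limma on TPM 0 higher and 2 lower. The list median was 0.30, beside 0.15 for all tested, and -0.43 with library totals, beside -0.57. No test of a difference between this list and the chow-rich set was made, because the chow contrast chose that set. From a list of 4 entries noted near ribosomal RNA, 2 were present and tested, miR-6236 and miR-6239. The first had 32, 112 and 52 counts in HFD Sirt3 AKI. It had 49, 33 and 25 in HFD WT and 6, 8 and 7 in chow WT. In HFD WT over chow WT its value was 0.15 on the log2 scale (SE 0.59, edgeR adjusted p = 0.871). The value for miR-6239 was -0.89 (SE 0.71, edgeR adjusted p = 0.375), and neither was called in HFD Sirt3 AKI over HFD WT. Also numbered close to miR-6240, miR-6238 is not on that list and was named after its value was seen. It stood at -2.11 in HFD WT over chow WT.

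Under the high fat diet, mice with and without adipose Sirt3 overexpression can be set against each other. This contrast did not choose the members, but the same HFD WT libraries were on the low side of the one that did. By edgeR 0 of the 7 were called at an adjusted p below 0.05, and 2 had an unadjusted p below 0.05. Only miR-6240 and miR-5126 would have passed the filter on the HFD libraries alone. The other 5, both of those with an unadjusted p below 0.05 (miR-6538 and miR-1291) among them, entered this test through their level in chow WT, and miR-712-3p had 0 counts in all 6 HFD libraries. Nothing is read from the count of 0 of 7 for these 5. Over the 414 tested, 37 were called, or 8.94%, with 6 higher (1.45%) and 31 lower (7.49%), and 109 (26.3%) had an unadjusted p below 0.05. The split depended on the scaling, with 36 higher and 11 lower by library totals, 29 and 11 by limma on TPM, and 10 and 14 with DESeq2 size factors. DESeq2 called 65 (38 higher and 27 lower), and 0 of the 4 members to which it gave an adjusted p. The count over all tested ran between 13 and 102 when single libraries were left out. It fell to 3 in a fit of the 2 groups only and to 1 with batch as a term.

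The abundant miR-6240 had 319, 1592 and 836 normalised CPM in HFD Sirt3 AKI replicates 1 to 3, against 670, 883 and 587 in HFD WT. Replicate 1 lay below all HFD WT libraries and replicate 2 above them, so the groups overlapped. Its log2 fold change, 0.36 (SE 0.42), did not pass the test (edgeR adjusted p = 0.638). The smaller batch holds no HFD WT library, so the comparison within a batch rests on the larger one. There, where replicate 1 is the lone HFD Sirt3 AKI library and is assumed to vary like the other groups, it was -1.02 (edgeR adjusted p = 0.00208), and with batch as a term -1.16 (edgeR adjusted p = 0.172). Without replicate 1 it was 0.77 (edgeR adjusted p = 0.0257), and without replicate 2 it was -0.29 (edgeR adjusted p = 0.524). Replicate 2 was also highest in the hepatocyte markers, at a sum of 31047 normalised CPM, against 8807 and 14877 in replicates 1 and 3. Its 3 epithelial markers summed to 13119, against 6252 and 7807, and the brain marker miR-9-5p stood at 3754, against 105 and 968. All of these markers were detected in every library, and their part in the miR-6240 value was not tested.

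None of the other members passed the test in the fit of all 9 libraries. For miR-5126 the log2 difference was -0.35 (SE 0.24, edgeR adjusted p = 0.374), with the groups overlapping. For miR-203b-3p it was 1.21 (SE 0.64, edgeR adjusted p = 0.262), with HFD Sirt3 AKI replicate 1, at 3.24 normalised CPM, just below HFD WT replicate 1 at 3.34. The value for miR-6538 was 2.08 (SE 0.79, edgeR adjusted p = 0.118), from 19 counts in HFD Sirt3 AKI and 3 in HFD WT, and HFD Sirt3 AKI replicate 2 lay below HFD WT replicate 2. Without HFD Sirt3 AKI replicate 2 its value was 2.45 (edgeR adjusted p = 0.0408). Nothing is read from that fit, because miR-6538 entered the test through chow WT.

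The groups of miR-1291 did not overlap, with 7 counts in HFD Sirt3 AKI and 0 in HFD WT, as in 8.7% of the 414 with every HFD Sirt3 AKI library higher. With the floor of 3 counts for HFD WT, the rate in HFD Sirt3 AKI was 1.72-fold higher. That value leaves out counting error in the 7 counts, and the difference did not pass the test (edgeR adjusted p = 0.168). For both arms of miR-712 the groups were at or under the floor, so no fold is given. Of the 8 tested microRNAs of unusual origin, 1 was called in this comparison, the Dicer-independent erythroid miR-451a, which was lower by -0.83 on the log2 scale (SE 0.22, edgeR adjusted p = 0.0488), a call lost with library totals, DESeq2 size factors or limma on TPM. The median of these 8 was -0.42, beside -0.021 for all tested.

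**Figure D5:**
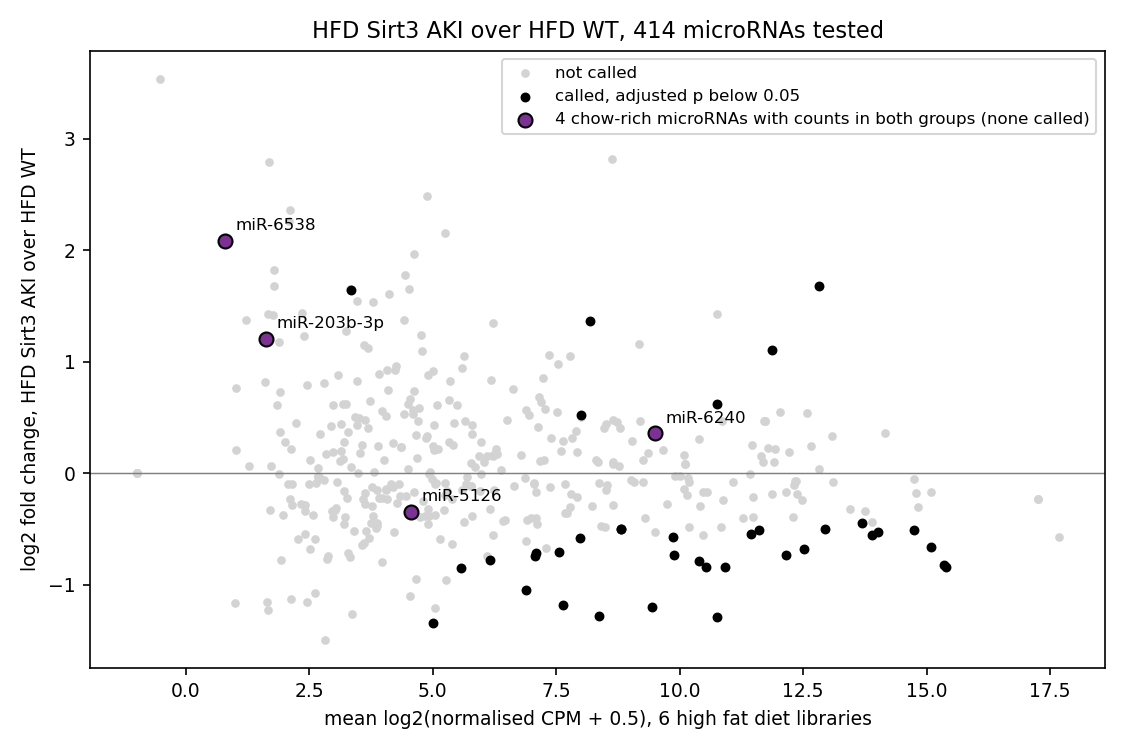
Log2 fold change of HFD Sirt3 AKI over HFD WT (vertical axis) against the mean log2(normalised CPM + 0.5) of the 6 HFD libraries (horizontal axis) for the 414 tested microRNAs, except the 3 members with 0 counts in HFD WT. Grey points were not called. Black points are the 37 called, and purple points the 4 members with counts in both groups, of which 0 were called.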

How the data were processed

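Vesicles were precipitated from serum and sequenced on Illumina libraries, per the labels' protocols. The deposited count tables hold whole-number read counts per mature microRNA, for 1064 known and 105 predicted microRNAs. The deposited TPM table matched each count per 1000000 of the library total with a largest difference of 5.00e-05, so it has no length term. The submitters' processing notes list Bowtie 0.12.2 and build mm8 without saying what each was used for. Trimming, the counting program and the treatment of reads that match several RNAs: not given in the sources used here.

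Counts were tested with edgeR 4.0.16 in R 4.3.3: filterByExpr with a minimum count of 10 (414 kept, 755 left out with 0.0543% of counts), trimmed mean of M values, quasi-likelihood over all 9 libraries, and Benjamini-Hochberg adjustment over all 414 at 0.05. The mean scaling factor was 0.978 in HFD Sirt3 AKI, 0.787 in HFD WT and 1.31 in chow WT. Scaling by library totals moved the median of all 414 log2 fold changes from -0.021 to 0.27 in HFD Sirt3 AKI over HFD WT, and from 0.15 to -0.57 in HFD WT over chow WT. Alternatives used DESeq2 1.42.0 and limma 3.58.1, limma on log2(TPM + 1). Intervals of count ratios are exact (Clopper-Pearson). The members, lists and named microRNAs were chosen with earlier results of these data known. They were the 7, the arms of miR-203, microRNAs of unusual origin, entries noted near ribosomal RNA, and the 5 closest in pattern.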

Additional observations from a re-analysis of the deposited data

How the results depend on the processing

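The drop of the 7 microRNAs in both HFD groups against chow WT kept its direction in all 234 values under the alternatives run. That direction chose the 7, and each alternative used the same libraries or a part of them. The constant direction is therefore no support, and the ranges below describe size alone. In HFD WT over chow WT the log2 fold change lay between -4.77 and -3.82 for miR-6240, between -4.88 and -3.95 for miR-5126, between -8.90 and -7.43 for miR-6538 and between -7.70 and -6.46 for miR-203b-3p. In HFD Sirt3 AKI over chow WT it lay between -5.18 (batch term) and -3.24 (without HFD Sirt3 AKI replicate 1) for miR-6240, between -4.92 and -4.27 for miR-5126, between -6.72 and -5.49 for miR-6538, and between -6.35 and -5.51 for miR-203b-3p. In HFD Sirt3 AKI over HFD WT, miR-6240 turned to -1.16 with the batch term, -1.02 in the larger batch and -0.29 without HFD Sirt3 AKI replicate 2, the lowest and highest with 1 library left out being -0.29 and 0.77. The adjusted p of edgeR, DESeq2 or limma ranged over these alternatives from 0.00208 to 0.841 for miR-6240, 0.215 to 0.965 for miR-5126, 0.0408 to 0.509 for miR-6538, 0.0949 to 0.751 for miR-203b-3p and 0.0813 to 0.638 for miR-1291. Some fits gave no value for a rare member, because the filter then dropped it.

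The number of microRNAs called in HFD Sirt3 AKI over HFD WT, 37, was 24 with DESeq2 size factors, 65 with DESeq2, 3 in a fit of the 2 groups only, 1 with the batch term and 23 in the larger batch. Without a chow WT library it was 24 (replicate 1) and 24 (replicate 2), without an HFD WT library 23, 17 and 13 (replicates 1 to 3), and without HFD Sirt3 AKI replicates 1 and 3 it was 102 and 19. Among the fits with a single library left out, the lowest and highest were 13 and 102. With the replicate number as a block it was 31, with 0 called of the 6 members that had a count in either HFD group. Same-numbered libraries of these groups did not deviate together (r = -0.007, -0.080 and -0.034), nor did each library correlate best with its own number, so the numbers do not pair them.

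Counts of microRNAs without overlap depended on the scaling and on the number of libraries compared. In the larger batch replicate 1 is the lone HFD Sirt3 AKI library. No overlap is then easier to reach than with 3 libraries in each group. The larger-batch counts below therefore cannot be compared with those of all libraries, and nothing on scaling or batch is read from them. With every HFD Sirt3 AKI library above HFD WT there were 58 with DESeq2 size factors, 103 with library totals and 86 in the larger batch, against 36. With every library below there were 38 with library totals and 173 in the larger batch, against 72. For HFD WT against chow WT library totals gave 37 higher and 192 lower, against 128 and 99. For HFD Sirt3 AKI against chow WT they gave 58 higher, against 95, and the larger batch gave 164 lower, against 109. With miR-486a/b-5p left out of the denominator the 7 took 0.0796% of counts in HFD WT and 1.96% in chow WT. The causes were not tested. Depth limits the arms of miR-712 and miR-1291, which had 3 to 11 counts in each chow WT library.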
